A study of Mus musculus with 8 samples.

Results

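The genes described here are 10 heat shock genes of mouse male germ cells: *Hspa2*, *Hspa1l*, *Hspa8* and *Hspa5* of the HSP70 family, *Hspa4l* and *Hspa4* of the related HSP110 family, *Hsp90aa1* and *Hsp90ab1* of the HSP90 family, and the transcription factors *Hsf1* and *Hsf2*. They were chosen by name, and all 10 were found among the 23343 genes of the RNA-seq tables. The series compared pachytene spermatocytes (PS), which are in meiotic prophase, with round spermatids (RS), the haploid cells that follow meiosis, both purified from adult testes of C57BL/6 mice by sedimentation through a BSA gradient. RNA-seq was performed on PS and RS of *Rnf8* and *Scml2* double knockout (*Rnf8;Scml2*-dKO) mice, with 2 biological replicates per stage. These mice lack both the ubiquitin ligase RNF8 and the X-linked Polycomb protein SCML2, and so the RNA-seq stages share this genotype and hold no wild-type cells. H3K27ac ChIP-seq was performed on PS and RS of wild-type mice, again with 2 replicates per stage. The preparation from dKO testes was a small-scale one that yields both stages from 1 male, and the labels do not say which samples share a mouse. Differences between the assays can therefore also be differences between the genotypes, and these cannot be told apart. H3K27ac intervals were counted for a gene when the deposited annotation gave them to it or when they lay within 2 kb of its start site, which yielded 34 and 45 intervals in PS and 70 and 40 in RS, among 41095 and 49434, and 74919 and 45863, in all.

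Heat shock proteins are chaperones that bind unfolded or partly folded proteins. HSP70 proteins hold their clients in a cycle of ATP hydrolysis, DNAJ proteins start that cycle, nucleotide exchange factors, among them the HSP110 proteins, reset it, and HSP90 proteins act on clients at a later step. HSF1 and HSF2 are transcription factors that bind heat shock elements in DNA. Male germ cells carry forms of their own: HSPA2 is made from meiosis on and is required for male meiosis in mice, HSPA1L is made in spermatids, and HSPA4L is abundant in testis. H3K27ac is a histone mark of active promoters and enhancers.

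The RNA-seq tables held 9655405 to 12289694 reads on genes per sample, and 14647 genes with at least 10 reads in at least 2 samples were tested, among them all 10 heat shock genes. The purified fractions were checked with marker lists, in RPKM (reads scaled to transcript length and library size) summed over each list. The 12 spermatocyte markers summed to 877 and 843 RPKM in PS and to 347 and 399 in RS, and the 16 round spermatid markers to 722 and 1141 in PS and to 16713 and 17225 in RS. The 7 Leydig cell markers summed to 785 and 568 RPKM in PS and to 72.1 and 45.2 in RS, the 12 Sertoli cell markers to between 43.3 and 109.5 RPKM, and the 6 macrophage markers to 2.44 and 2.99 RPKM in PS and to 25.3 and 23.0 in RS. All 7 Leydig markers fell and all 6 macrophage markers rose in RS by the test used below. By the same test, 7 of the 12 spermatocyte markers fell, *Dmc1* rose and 4 were not called, and all 16 round spermatid markers rose. *Piwil1* alone gave 286 and 326 RPKM of the spermatocyte sum in PS and 9.91 and 17.6 in RS. The 9 spermatogonia markers summed to 28.6 to 55.8 RPKM and the 6 peritubular and vessel markers to 4.16 to 6.46, and among 4 red cell markers *Hba-a1*, *Hba-a2* and *Hbb-b1* were listed at 0 in every sample. The deleted genes still had reads, 50 to 110 for *Rnf8* and 40 to 98 for *Scml2*, which could not be set against wild-type cells.

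The promoters of the pair that rose in RS, *Hspa1l* and *Hsf2*, and of the endoplasmic reticulum chaperone *Hspa5*, whose RNA overlapped between the stages, are shown as the 250 bases before the RefSeq start, 5′ to 3′ on the strand of the gene (RefSeq, GRCm38.p6, the build called mm10 in the files). Capitals mark CCAAT boxes on either strand, TGACG, which is the first part of a cAMP response element (TGACGTCA), and, in *Hspa5*, the CCACG that completes an endoplasmic reticulum stress response element.
Hspa1l promoter, chr17:34972453-34972702, + strand: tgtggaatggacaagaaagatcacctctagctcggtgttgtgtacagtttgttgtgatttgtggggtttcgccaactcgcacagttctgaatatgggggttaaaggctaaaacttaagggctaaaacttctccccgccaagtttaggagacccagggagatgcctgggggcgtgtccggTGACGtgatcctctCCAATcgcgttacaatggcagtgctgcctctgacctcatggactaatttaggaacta
Hsf2 promoter, chr10:57486135-57486384, + strand: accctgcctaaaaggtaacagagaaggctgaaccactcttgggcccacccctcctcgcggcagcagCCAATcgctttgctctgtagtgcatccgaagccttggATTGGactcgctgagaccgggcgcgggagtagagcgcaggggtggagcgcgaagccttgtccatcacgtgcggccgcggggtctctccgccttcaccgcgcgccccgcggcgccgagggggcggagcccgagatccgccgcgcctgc
Hspa5 promoter, chr2:34771840-34772089, + strand: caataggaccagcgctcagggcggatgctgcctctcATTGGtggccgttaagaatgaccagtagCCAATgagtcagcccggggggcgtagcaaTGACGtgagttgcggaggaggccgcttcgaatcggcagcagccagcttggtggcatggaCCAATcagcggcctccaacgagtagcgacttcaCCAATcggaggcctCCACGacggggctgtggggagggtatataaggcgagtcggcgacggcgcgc
The promoter table matched 6 of the 10 genes, *Hspa2*, *Hspa1l*, *Hspa5*, *Hspa4l*, *Hspa4* and *Hsf2*, and not *Hspa8*, *Hsp90aa1*, *Hsp90ab1* or *Hsf1*. Motifs were sought on both strands of windows from 250 bases before to 50 bases after the start, in these 6 and in all 32851 windows of the table. TGACG was in 5 of the 6 windows, all but that of *Hsf2*, and in 20.8% of all windows. CCAAT was in 4 of the 6, *Hspa2*, *Hspa1l*, *Hspa5* and *Hsf2*, and in 37.4% of all, and *Hspa5* had 4 copies. The window of *Hspa2* was placed at the start of its 1-exon transcript (76404370), so its TGACG and CCAAT lie downstream of the start of the 2-exon transcript (76404176). The full endoplasmic reticulum stress response element, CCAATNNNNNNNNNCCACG, which overlaps a CCAAT box, was in *Hspa5* and in 0.119% of all windows. The Sp1 box GGGCGG was in 5 of the 6 windows and in 35.7% of all. No window of the 6 held GAANNTTC or TTCNNGAA, short forms of the heat shock element found in 7.86% and 8.52% of all windows, and none held TGACGTCA (1.79% of all) or TATAAA (13.6% of all). *Hspa1l* had the lowest GC content of the 6 promoters, 49.6%, and *Hspa4l* the highest, 73.6%, beside a median of 52.4% over all windows. The 6 promoters held from 9 (*Hspa1l*) to 34 (*Hspa4l*) CG pairs, beside a median of 6. The observed over expected ratio of CG ran from 0.595 to 1.01, beside a median of 0.373. TGACG and GGGCGG each contain CG, and their shares were not compared with windows of like CG content.

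The RNA of *Hspa1l* and *Hsf2* was higher in RS, that of *Hspa2*, *Hsp90aa1* and *Hsp90ab1* was lower, and the other 5 genes were not called. A gene was called when edgeR's quasi-likelihood test gave a Benjamini-Hochberg adjusted p under 0.05 and the change was at least 1.5-fold. The 2 genes called higher and 3 called lower in 10 stand beside 30.4% and 27.6% of all genes tested. The stages did not overlap for 9 genes in RPKM, 3 with both RS samples above both PS samples and 6 with both below, where 40.9% and 42.7% of all genes tested did so. The median log2 fold change, RS against PS, was −0.40 over the 10 genes and 0.01 over all genes tested. A lower level in these bulk fractions may be fewer cells of a type or less RNA per cell, which cannot be told apart.

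**Figure D1:**
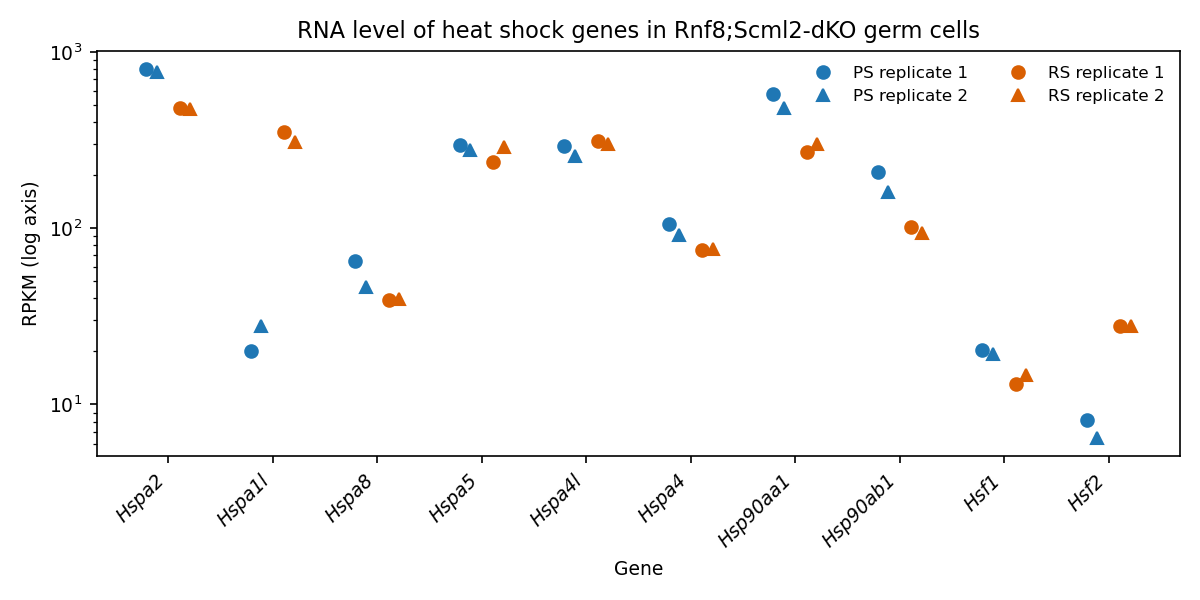
RNA level of the 10 heat shock genes in RPKM (log axis) in each sample of *Rnf8;Scml2*-dKO PS (blue) and RS (orange), with circles for replicate 1 and triangles for replicate 2. *Hspa1l* and *Hsf2* lie higher in RS, *Hspa5* overlaps, and *Hspa4l* lies close between the stages.

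*Hspa2* encodes the HSP70 protein of meiosis and lies on chromosome 12 (mm10, chr12:76404176-76406936, + strand). It measured 796 and 771 RPKM in PS and 479 and 474 in RS, and was the highest of the 10 genes in every sample. Both RS samples lay well below both PS samples, and among all genes *Hspa2* ranked 27 and 29 by RPKM in PS and 82 and 76 in RS. The change was −0.68 ± 0.10 (log2, SE), a 1.60-fold lower level (edgeR adjusted p = 0.000596). Without RS replicate 2 the change was −0.57, below 1.5-fold (adjusted p = 0.0212).

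The deposited table splits the reads of *Hspa2* between a transcript of 2 exons, which starts at 76404176, and a transcript of 1 exon, which starts at 76404370 inside the intron of the other. The 1-exon transcript received 27.6% and 19.9% of the gene's reads in PS and 8.48% and 6.38% in RS, and its RPKM was 217 and 152 in PS and 40.0 and 29.8 in RS. The 2-exon transcript had 579 and 619 RPKM in PS and 439 and 445 in RS. Both transcripts were thus lower in RS, and the share of the 1-exon one was smaller in both RS samples. Of 1151 genes with 2 listed transcripts, 33.5% had shares that did not overlap between the stages. The transcripts share nearly all their sequence, and the split is an estimate by the authors' software. With the 2-exon transcript alone, the log2 fold change of the gene was −0.39 (adjusted p = 0.0194), below 1.5-fold.

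*Hspa1l* (chr17:34972703-34979228, + strand), which encodes the HSP70 protein of spermatids, measured 20.1 and 27.8 RPKM in PS and 349 and 307 in RS. The stages were far apart, and the change of 3.81 ± 0.19, or 14.1-fold (edgeR adjusted p = 3.43e-06), was the largest of the 10. *Hspa1l* ranked 281 from the top among the 14647 log2 fold changes. In PS it was near the foot of the 10 genes, and in RS it was second to *Hspa2*. The round spermatid markers moved with it and were, like it, higher in PS replicate 2 than in PS replicate 1, and their part in the PS level was not tested. In GENCODE M21, 1778 of the 2472 exonic bases of *Hspa1l* overlap *Gm10501* on the other strand. The library kit does not mark strand, so reads of the pair cannot be told apart.

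*Hspa2* and *Hspa1l* together measured 817 and 799 RPKM in PS and 828 and 782 in RS. The summed level differed by less than the samples of a stage did, while its makeup changed. *Hspa1l* was 2.46% and 3.49% of this sum in PS and 42.2% and 39.3% in RS. Over all 4 HSP70 genes, *Hspa2* was 67.7% and 68.6% of the summed RPKM in PS and 43.4% and 42.7% in RS.

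*Hspa8* (chr9:40801273-40805199, + strand), the constitutive cytosolic HSP70, measured 64.7 and 46.6 RPKM in PS and 39.1 and 39.5 in RS. Both RS samples were below the lower PS sample. Its change of −0.46 ± 0.16 passed the test at an adjusted p of 0.0342 (edgeR) but not the 1.5-fold threshold. Without PS replicate 2 it was −0.63 and was called (adjusted p = 0.00182), and with any other sample left out its adjusted p lay between 0.165 and 0.225. *Hspa8* has many near-identical pseudogene copies, reads shared with them were dropped by unique alignment, and its level is thus uncertain. The same holds for *Hsp90ab1*.

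*Hspa5* (chr2:34772090-34776529, + strand), the HSP70 protein of the endoplasmic reticulum, measured 295 and 279 RPKM in PS and 236 and 289 in RS. It was the single gene of the 10 whose stages overlapped. Its change was −0.09 ± 0.13 (edgeR adjusted p = 0.549), and without RS replicate 1 it was 0.14 (adjusted p = 0.539).

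The HSP110 genes, which encode nucleotide exchange factors of HSP70, were not called. *Hspa4l* (chr3:40745613-40790365, + strand) measured 293 and 257 RPKM in PS and 313 and 300 in RS. The RS samples lay just above the PS samples, with a change of 0.20 ± 0.11 (edgeR adjusted p = 0.152). *Hspa4* (chr11:53259814-53300479, − strand) measured 106 and 91.6 RPKM in PS and 75.4 and 75.8 in RS. Its change of −0.34 ± 0.12 passed the test at an adjusted p of 0.0294 (edgeR) but not the 1.5-fold threshold, and the adjusted p rose to 0.297 without RS replicate 2 and to 0.280 without RS replicate 1. Without PS replicate 1 it was 0.0661.

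Both cytosolic HSP90 genes were lower in RS. *Hsp90aa1* (chr12:110691036-110696395, − strand), the form that heat induces, measured 578 and 480 RPKM in PS and 270 and 301 in RS, a change of −0.85 ± 0.12 (edgeR adjusted p = 0.000422). *Hsp90ab1* (chr17:45567778-45573261, − strand), the constitutive form, measured 208 and 159 RPKM in PS and 101 and 94.0 in RS, a change of −0.87 ± 0.14 (edgeR adjusted p = 0.000804). The stages did not overlap for either gene, and the levels in RS were 1.80-fold and 1.82-fold lower. The ratio of *Hsp90aa1* to *Hsp90ab1* in RPKM was 2.78 and 3.01 in PS and 2.67 and 3.20 in RS, so it overlapped between the stages. *Hspa2*, *Hsp90aa1* and *Hsp90ab1* fell together with the Leydig markers, of which *Insl3* was the highest at 593 and 450 RPKM in PS and 60.01 and 35.8 in RS, and the part of such cells in the fall was not tested.

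The 2 heat shock factors moved in opposite directions. *Hsf2* (chr10:57486385-57513143, + strand) measured 8.13 and 6.45 RPKM in PS and 27.9 and 28.0 in RS, a change of 1.98 ± 0.16, or 3.95-fold (edgeR adjusted p = 1.64e-05). *Hsf1* (chr15:76477445-76500972, + strand), the factor that drives the heat response, measured 20.3 and 19.4 RPKM in PS and 12.998 and 14.8 in RS, a change of −0.48 ± 0.16 (edgeR adjusted p = 0.0253) that did not reach 1.5-fold. Without RS replicate 1 the adjusted p of *Hsf1* was 0.335, and without RS replicate 2 it was 0.136. *Hsf1* was above *Hsf2* in both PS samples and below it in both RS samples.

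Ordered by RPKM, which is scaled to length, the levels in PS ran from *Hspa2* through *Hsp90aa1*, *Hspa5*, *Hspa4l*, *Hsp90ab1*, *Hspa4*, *Hspa8*, *Hspa1l* and *Hsf1* to *Hsf2*. The neighbours *Hspa5* and *Hspa4l*, and *Hspa1l* and *Hsf1*, overlapped in their samples. In RS the order was *Hspa2*, *Hspa1l*, *Hspa4l*, *Hsp90aa1*, *Hspa5*, *Hsp90ab1*, *Hspa4*, *Hspa8*, *Hsf2* and *Hsf1*. There the neighbours from *Hspa1l* to *Hspa5* overlapped, each with the next. The 10 genes took 0.766% and 0.689% of all reads in PS and 0.605% and 0.617% in RS.

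All 10 promoters carried H3K27ac in every sample of wild-type PS and RS. The value used was the fold enrichment of the strongest peak summit within 2 kb of the start, which is the ratio of the fragment pileup to a background constant of the sample (0.72 to 1.46 fragments) after 1 was added to both. These values were lower in RS for most genes, with a median log2 difference of −0.42 over the 11352 genes with a promoter peak in every sample. They were therefore divided by the median of each sample before the test, and the differences are relative to that shift. So centred, H3K27ac was higher in RS at *Hspa1l*, *Hsf2* and *Hsf1* and lower at *Hspa2* and *Hsp90aa1* (limma, adjusted p under 0.05), 3 and 2 genes of 10 beside 24.5% and 20.5% of all genes tested. Without centring, *Hspa2* and *Hsp90aa1* remained lower, *Hspa4l* was lower as well, and none of the 10 was called higher by limma, either at an adjusted p or at an unadjusted p under 0.05 (0 in both cases), beside 8.07% of all genes called higher and 33.8% lower.

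**Figure D2:**
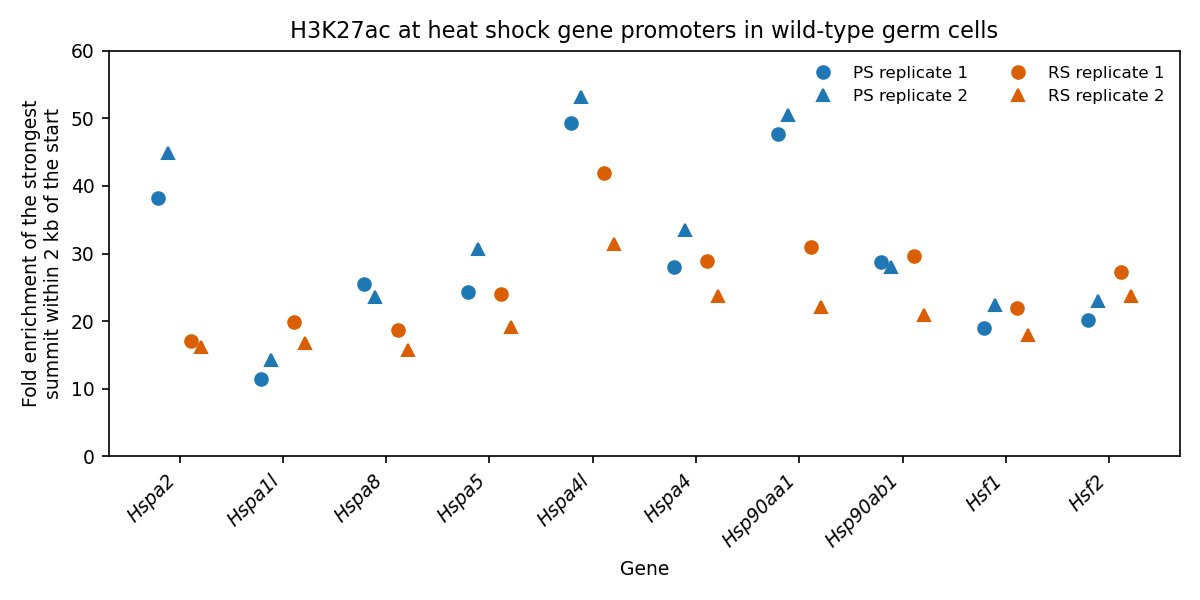
H3K27ac at the promoters of the 10 heat shock genes, as the fold enrichment (not centred) of the strongest summit within 2 kb of the start, in each wild-type PS (blue) and RS (orange) sample. Both RS samples lie below both PS samples at *Hspa2*, *Hsp90aa1*, *Hspa4l*, *Hspa8* and *Hspa5*, and above both at *Hspa1l* and *Hsf2*.

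At *Hspa2* the fold enrichment was 38.3 and 44.9 in PS and 17.1 and 16.3 in RS. The promoter was among the strongest of all in PS, above 98.6% and 99.2% of the 23343 genes, and above 79.7% and 86.9% in RS. Genes without a promoter peak count as 0 in these shares. Among the 13738 and 11879 genes with such a peak in the RS samples, it ranked 4542 and 2804. The centred log2 difference was −0.87 ± 0.14 (limma adjusted p = 2.21e-07) and the one without centring −1.32. The strongest summit lay 159 and 185 bases downstream of the first start in PS and 648 and 748 bases downstream in RS, within a peak that was 3201 to 3982 bases wide in the 4 samples.

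At *Hspa1l* the fold enrichment was 11.5 and 14.3 in PS and 19.9 and 16.8 in RS. The RS samples were above the PS samples, as at *Hsf2* alone among the other 9 genes, while 13.5% of the 14680 genes with a promoter peak in any sample showed this. The centred difference was 0.96 ± 0.17 (limma adjusted p = 1.96e-06) and the one without centring 0.52 (adjusted p = 0.141). The peak was 1623 and 816 bases wide in PS and 2664 and 2349 bases in RS. The start of *Hspa1a*, an inducible HSP70 gene on the other strand, lies 547 bases from that of *Hspa1l*, so that this peak serves as the promoter peak of both. *Hspa1a* had 6 and 3 reads in PS and 27 and 27 in RS.

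At *Hsf2* the fold enrichment was 20.2 and 23.0 in PS and 27.3 and 23.8 in RS. The centred difference was 0.68 ± 0.14 (limma adjusted p = 4.34e-05) and the one without centring 0.24 (adjusted p = 0.445). The start of *4930467K11Rik*, on the other strand, lies 32 bases away, and that gene had 0 and 1 reads in PS and 22 and 17 in RS. At *Hsf1* the values overlapped, 18.9 and 22.5 in PS and 22.0 and 18.0 in RS. The start of *Bop1*, on the other strand, lies 176 bases from that of *Hsf1*. *Bop1* had 734 and 725 reads in PS and 594 and 484 in RS. The centred difference at *Hsf1* was 0.39 ± 0.15 (limma adjusted p = 0.0268). It was 0.32 without PS replicate 1 (adjusted p = 0.166) and 0.34 without RS replicate 2 (adjusted p = 0.129), and −0.05 without centring.

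At *Hsp90aa1* the fold enrichment was 47.7 and 50.4 in PS and 30.9 and 22.1 in RS, with a centred difference of −0.47 ± 0.13 (limma adjusted p = 0.00174). At *Hsp90ab1* it was 28.8 and 28.0 in PS and 29.7 and 20.9 in RS, which overlapped, with a centred difference of 0.25 ± 0.14 (limma adjusted p = 0.125). Though the RNA of both genes was lower in RS, only the former was called lower in H3K27ac. Whether the H3K27ac differences of the pair differ from each other was not tested.

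*Hspa4l* had the strongest promoter of the 10, at 49.4 and 53.2 in PS and 41.9 and 31.3 in RS. In each sample it was above at least 99.1% of the 23343 genes, those without a promoter peak counted as 0. The centred difference was −0.06 ± 0.12 (limma adjusted p = 0.730), and the difference without centring was −0.50 (adjusted p = 0.0183). *Hspa4* measured 28.0 and 33.4 in PS and 28.9 and 23.8 in RS, *Hspa8* 25.5 and 23.6 in PS and 18.7 and 15.7 in RS, and *Hspa5* 24.3 and 30.7 in PS and 24.0 and 19.2 in RS. None of these was called after centring, with differences of 0.22, −0.08 and 0.09. The RS samples were below the PS samples at *Hspa2*, *Hspa4l*, *Hspa8*, *Hspa5* and *Hsp90aa1* before centring, as for 53.9% of the 14680 genes. After centring, they were below at *Hspa2*, *Hspa4l* and *Hsp90aa1* and above at *Hspa1l*, *Hspa4*, *Hsp90ab1*, *Hsf1* and *Hsf2*, as for 33.5% and 31.9% of genes.

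**Figure D3:**
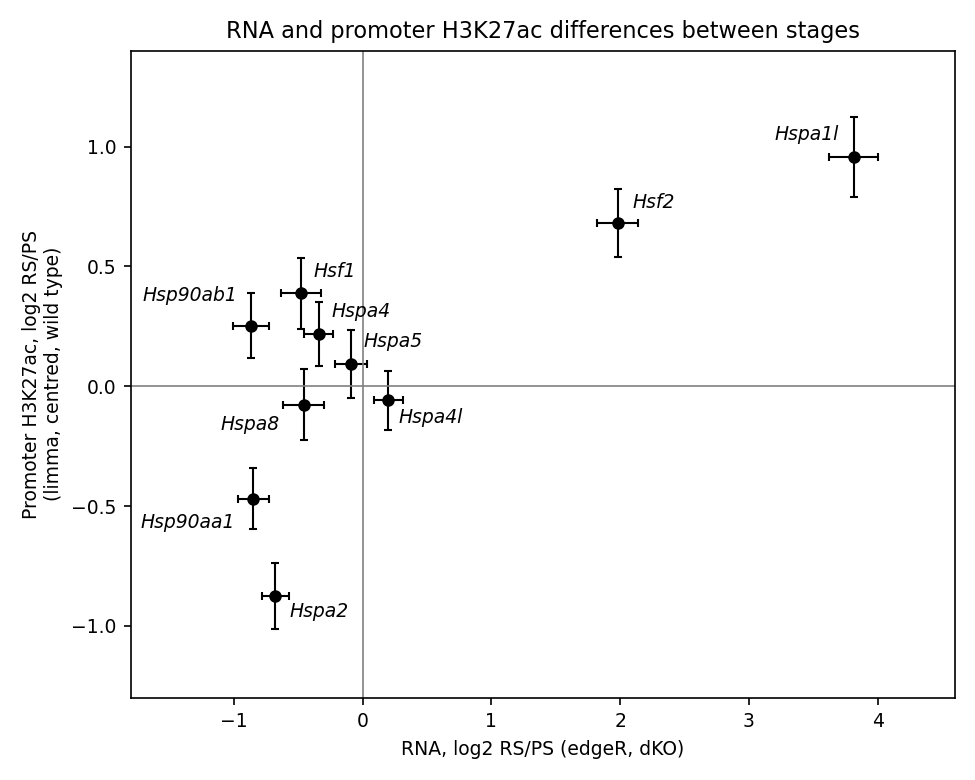
Log2 difference between RS and PS of each heat shock gene in RNA (x axis, edgeR, *Rnf8;Scml2*-dKO cells) and in promoter H3K27ac (y axis, limma on centred values, wild-type cells), with bars of 1 standard error. *Hspa1l* and *Hsf2* lie above 0 in both, *Hspa2* and *Hsp90aa1* below 0 in both, and *Hsp90ab1* below 0 in RNA and above 0 in centred H3K27ac, where it was below 0 without centring.

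In RNA and centred H3K27ac together, *Hspa1l* and *Hsf2* were called higher in both, and *Hspa2* and *Hsp90aa1* lower in both. *Hsp90ab1* was called in RNA alone and *Hsf1* in H3K27ac alone, where its difference had the sign opposite to that of its RNA after centring and the same sign without it. The assays come from different genotypes, and no test across these 10 points was made. The promoter peaks of *Hspa1l*, *Hspa4l*, *Hsp90aa1*, *Hsf1* and *Hsf2* were wider in both RS samples than in both PS samples, 5 genes of 10 beside 25.9% of all genes.

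Away from the starts, the intervals of the 10 genes merged into 72 regions, of which 45 were found in 1 sample, 3 in both PS samples and no RS sample, 8 in both RS samples and no PS sample, and 5 in all 4 samples. The other 11 were found in further combinations of samples. Over all 90470 merged regions of the lists, starts included, these classes held 57.5%, 6.37%, 8.31%, 18.2% and 9.61%. The 10 regions that span a start of the 10 genes were all found in all 4 samples. They are not among the 72, so the shares found in all 4 samples are not of like sets. RS replicate 1 had the most intervals of the 4 samples, both over the 10 genes and in all. Of the 72 regions away from the starts, 7 reached a fold enrichment of 10 in any sample.

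A region in *Hspa4l*, annotated as exonic and 38.7 kb downstream of its start (chr3:40782761-40785887), was enriched 6.996-fold and 7.67-fold in PS and 22.8 and 16.3 in RS. Both RS samples were above both PS samples, while at the promoter of the gene both RS samples were below both PS samples before centring. Another 4 regions of *Hspa4l* were found in both RS samples and no PS sample, with fold enrichments of 4.06 to 5.22. The nearest start to the exonic region is that of *Plk4*, 15.6 kb away. Upstream of *Hspa4*, a region 7.48 kb from the start (chr11:53306882-53309030) had a fold enrichment of 6.996 in PS replicate 1 and 7.13 in PS replicate 2, and of 12.6 and 9.87 in RS.

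The strongest distal regions given to *Hsf2* were higher in PS, where its RNA was lower. A region at chr10:56502979-56505506 was enriched 30.0-fold and 32.3-fold in PS and 7.32 and 4.64 in RS. A region at chr10:56566521-56568059 had 17.3 and 19.2 in PS, 4.48 in RS replicate 1 and no interval in RS replicate 2. These intergenic regions lie 982 and 919 kb upstream of *Hsf2*, although the annotation names it, and the nearest start in the tables is that of *Gja1*, 127 and 190 kb away. Closer, 3 regions between 95.2 and 98.7 kb upstream of *Hsf2* were found in both PS samples, at fold enrichments of 6.996 to 14.8, and in no RS sample. Which gene any of these regions acts on was not tested.

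**Figure D4:**
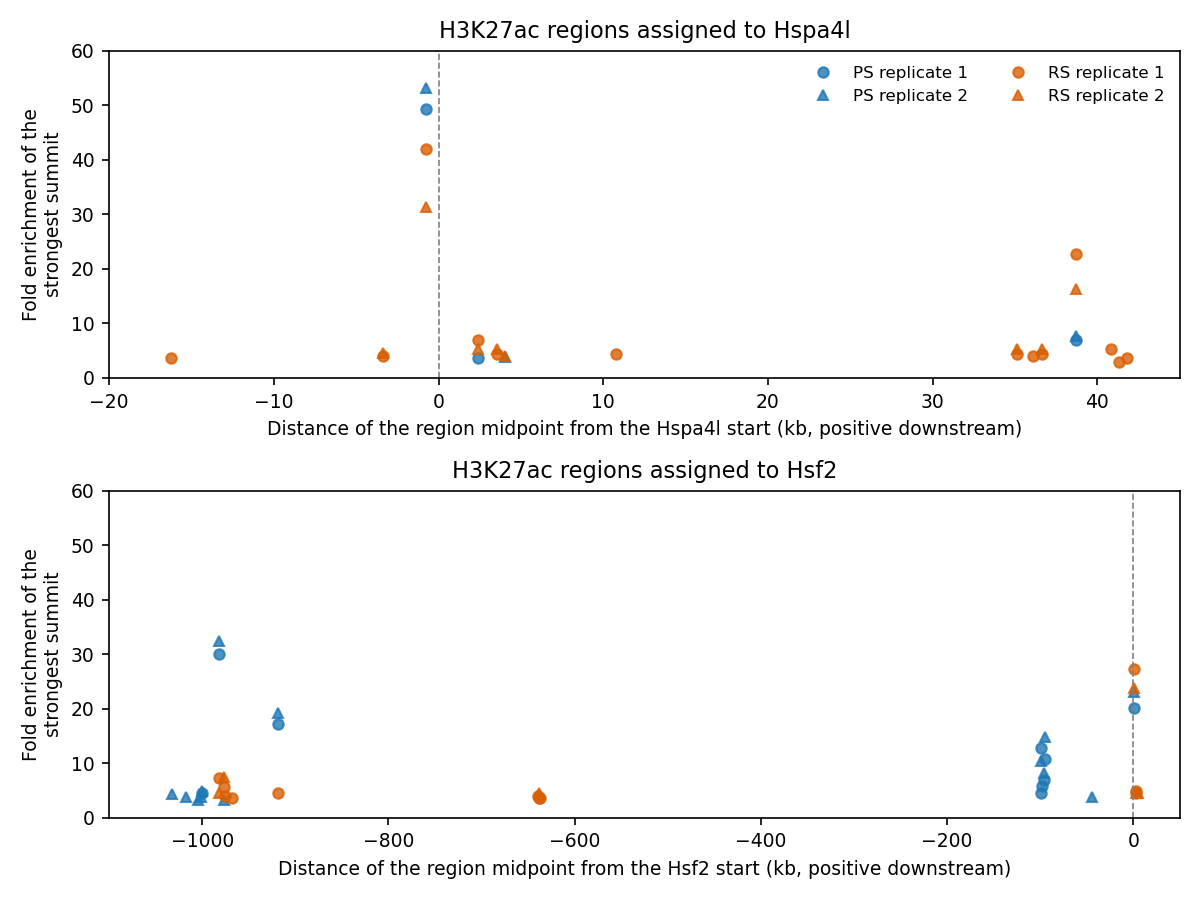
Fold enrichment of H3K27ac regions given to *Hspa4l* (top) and *Hsf2* (bottom) against the distance of the region's midpoint from the gene's start in kb, for each wild-type PS (blue) and RS (orange) sample with an interval there; the dashed line marks the start. The *Hspa4l* region at 38.7 kb is higher in RS, and the *Hsf2* regions near −982, −919 and −95.2 kb are higher in PS.

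Beyond the 10 genes, 9 lists of chaperone genes held 121 genes, of which 115 were tested. By edgeR, 27 of these were called higher in RS and 31 lower, and 57 were not called, with a median log2 fold change of −0.26, beside 30.4% higher and 27.6% lower over all genes.

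**Figure D5:**
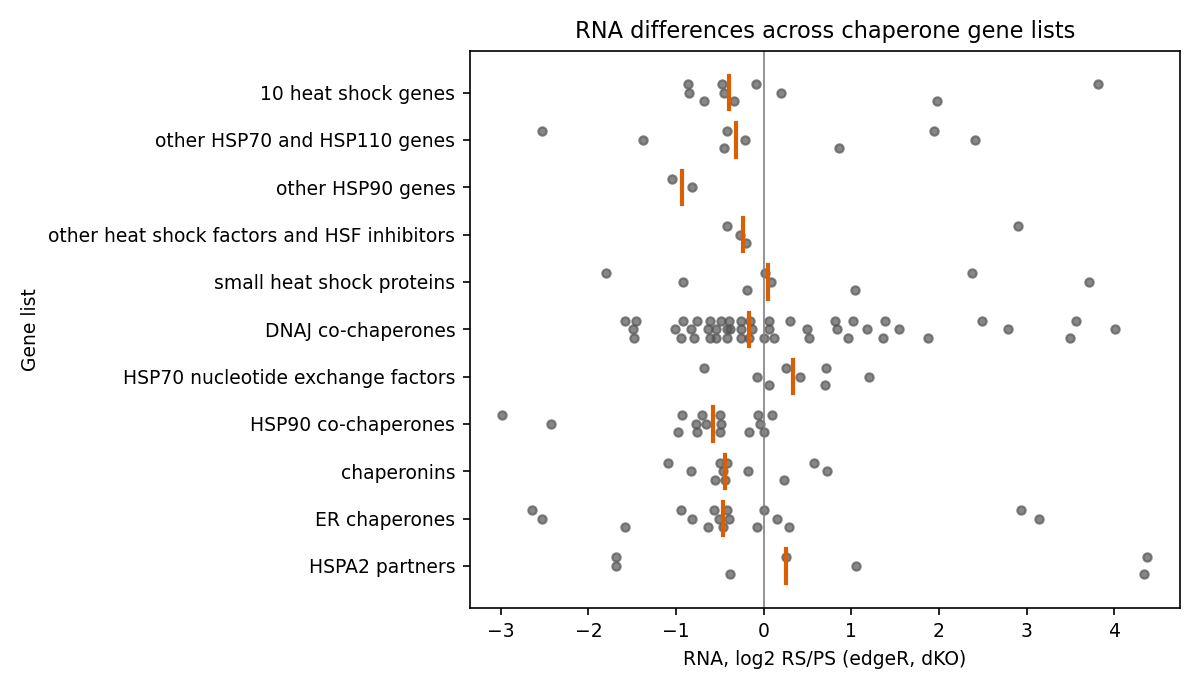
Log2 RNA difference between RS and PS (edgeR, dKO) of each tested gene (points) in the 10 heat shock genes and in related gene lists, with the median of each list (orange line); points are spread vertically for legibility. Every HSP90 co-chaperone that was called lies below 0, and the DNAJ co-chaperones reach from −1.58 to 4.01.

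Of the other HSP70 and HSP110 genes, 3 of 8 tested were higher (37.5%) and 2 lower (25%). These shares stand beside 30.4% and 27.6% of all genes tested. *Hspa1a* (5.31-fold) and *Hspa12b* (3.84-fold) rose but were below 2 RPKM in every sample. *Hyou1*, the HSP110 protein of the endoplasmic reticulum, fell from 153 and 155 RPKM in PS to 24.0 and 28.1 in RS (log2 −2.52, adjusted p = 3.43e-06), and *Hspa14* fell with a log2 change of −1.38. The mitochondrial *Hspa9* (−0.46) and *Hsph1* (−0.41) did not reach 1.5-fold. *Hspa1b*, nearly identical to *Hspa1a*, had 1 to 12 reads per sample and was not tested. Reads that the pair shares were dropped, so both counts are uncertain. Both other HSP90 genes fell, the mitochondrial *Trap1* by 1.05 and the endoplasmic reticulum form *Hsp90b1* by 0.82 on the log2 scale.

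Of 4 tested genes among the other heat shock factors and their inhibitors, 1 was called, as higher in RS (25%, beside 30.4% of all genes). *Hsfy2* rose from 13.2 and 13.6 RPKM in PS to 114 and 81.0 in RS (7.49-fold, edgeR adjusted p = 7.37e-06). The meiotic factor *Hsf5* measured 92.4 and 85.5 RPKM in PS and 70.5 and 80.3 in RS (adjusted p = 0.172). Its level was above those of *Hsf1* and *Hsf2* in every sample.

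Of the 47 DNAJ co-chaperones, 14 were higher (29.8%), 13 lower (27.7%) and 20 not called, shares near those of all genes (30.4% and 27.6%). *Dnajb8* rose from 17.4 and 25.0 RPKM to 346 and 321 and *Dnajc5b* from 10.4 and 13.3 to 143 and 125, changes of 16.1-fold and 11.8-fold that are near that of *Hspa1l* in size. *Dnajc3*, which acts in the endoplasmic reticulum (−1.58), and *Dnajc12* (−1.49) had the largest falls of the list. Of the 8 nucleotide exchange factors, 3 rose and 0 fell by edgeR (0 at an unadjusted p under 0.05, and 0 by DESeq2), with *Bag5* at 161 and 178 RPKM in PS and 386 and 375 in RS (2.31-fold) and *Bag1* 1.63-fold higher.

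Over all genes tested, 27.6% were lower in RS and 30.4% higher. Of the 16 HSP90 co-chaperones, 8 were lower (50%) and 0 higher, with a median of −0.58. For higher levels in RS, the count by edgeR at an unadjusted p under 0.05 and the count by DESeq2 were 0 as well. *Tomm34* fell from 61.9 and 62.9 RPKM in PS to 6.99 and 8.38 in RS (−2.98, edgeR adjusted p = 3.43e-06) and *Ppp5c*, a phosphatase bound to HSP90, from 59.8 and 55.1 to 8.84 and 11.98 (−2.43, adjusted p = 8.57e-06). Among 11 chaperonin genes, *Hspd1* rose 1.65-fold and *Cct8* (−1.09) and *Cct6a* (−0.83) fell. Among 17 endoplasmic reticulum chaperones, 2 rose (11.8%) and 6 fell (35.3%). *Calr3* (8.80-fold) and *Pdilt* (7.66-fold), forms made in testis, rose, while *Sdf2l1* (−2.65) and *Hyou1*, which is on this list too, fell. *Hsp90b1*, *Dnajc3* and another DNAJ gene, which are among the 6 that fell, were likewise counted on an earlier list. Of 8 tested small heat shock proteins, 3 rose, among them *Odf1*, a protein of the sperm tail, from 59.4 and 81.1 RPKM to 884 and 915, and *Cryaa*, at under 2 RPKM, and 2 fell, *Hspb6* (−1.79) and *Hspb11* (−0.92).

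Of 7 genes whose proteins are known to bind or depend on HSPA2, 3 rose and 2 fell, beside 30.4% and 27.6% of all genes tested. *Cdk1*, the meiotic kinase whose complex HSPA2 helps to assemble, fell from 19.9 and 19.7 RPKM to 6.32 and 5.64 (−1.69, edgeR adjusted p = 3.62e-05), and its cyclin *Ccnb1* rose 2.08-fold, from 12.2 and 11.6 RPKM to 22.9 and 25.3. *Shcbp1l* fell from 272 and 309 RPKM to 84.3 and 92.2 (−1.68). *Bag6*, which stabilizes HSPA2, measured 330 and 372 RPKM in PS and 399 and 416 in RS (0.25, adjusted p = 0.0910), and *Sycp1*, of the synaptonemal complex, 62.2 and 26.1 in PS and 28.0 and 37.4 in RS (−0.38, adjusted p = 0.329). The transition proteins *Tnp1* and *Tnp2*, which replace histones in spermatids, rose 20.2-fold and 20.8-fold. Promoter H3K27ac, centred, was lower in RS at *Cdk1* (−1.72) and *Shcbp1l* (−1.35) and higher at *Tnp1* (1.67) and *Tnp2* (1.73). The other 3 genes were not called (limma). Over all genes tested in H3K27ac, 24.5% were higher and 20.5% lower.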

How the data were processed

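Samples were grouped by stage and assay from GEO's labels: dKO RNA-seq and wild-type H3K27ac ChIP-seq, with 2 samples of each stage. RNA-seq reads were aligned by the authors with STAR 2.4.2a (mm10), which kept unique alignments, and were split between RefSeq transcripts; the deposited estimated counts and RPKM (normalized by the authors for length and library size) were used. For ChIP-seq, the authors called peaks with MACS2 in each sample. The deposited lists give the pileup signal of each summit, its fold enrichment ratio and −log10 p and q values. Submitters' notes name Bowtie 1.1.1 and MACS2 2.1.0.20140616.

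Counts were summed per gene and tested with edgeR's quasi-likelihood test (TMM, at least 10 counts in at least 2 samples), called at an adjusted p under 0.05 and 1.5-fold. They were rounded for DESeq2 alone. Promoter H3K27ac was tested with limma on log2 fold enrichment centred on the sample median. The p-values rest on the spread between 2 samples per stage, which edgeR and limma shrink for each gene towards that of all genes tested. No exact permutation test of 2 against 2 can go below 0.333. All 10 genes, at most 2 genes in each direction per wider list, further family members and all HSPA2 partners were named. The genes and lists were chosen with earlier results of these data known. ChIP-seq read totals are unknown.

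Alternatives were DESeq2, other scalings, filters, pseudocounts on log2(RPKM), windows and thresholds, a replicate block, and each sample left out. Python 3.11.15, numpy 2.4.6, pandas 2.3.3, matplotlib 3.10.9, R 4.3.3, edgeR 4.0.16, limma 3.58.1 and DESeq2 1.42.0 were used.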

Additional observations from a re-analysis of the deposited data

How the results depend on the processing

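In RNA, 124 of 130 alternative values of the 10 genes kept their direction and their side of the threshold, and *Hspa1l*, *Hsf2*, *Hsp90aa1* and *Hsp90ab1* did so under all 13 alternatives. *Hspa2* was below 1.5-fold with at least 50 counts in 2 samples (−0.56) and with the transcript with the most reads (−0.39), and ranged from −0.70 to −0.57 with 1 sample left out. *Hspa5* was 0.031 with the 50-count filter and ranged from −0.14 to 0.14 with 1 sample left out, and *Hspa8* from −0.63 to −0.25. DESeq2 gave adjusted p of 0.0638 for *Hspa4* and 0.0603 for *Hsf1*. In promoter H3K27ac, 99 of 110 values kept direction and side. Without centring, the log2 differences were 0.52 for *Hspa1l*, 0.24 for *Hsf2*, −0.50 for *Hspa4l*, −0.22 for *Hspa4*, −0.35 for *Hspa5*, −0.19 for *Hsp90ab1* and −0.053 for *Hsf1*, and the number of genes called higher fell from 3 to 0; all values shift by construction. With 1 sample left out, *Hspa8* ranged from −0.19 to 0.035, *Hspa5* from −0.022 to 0.21 and *Hsf1* from 0.32 to 0.46. Genes with non-overlapping promoter values numbered 5 higher and 3 lower by percentile rank, 5 and 3 after division by the sample median (chosen after seeing the data), against 2 and 5 as deposited, and the lower ones ranged from 5 to 8 with 1 sample left out, 8 without RS replicate 1. The cause of the other changes was not tested. Same-numbered samples are not said to share a mouse; their deviations correlated at 0.22 in RNA and 0.01 in H3K27ac, and when the replicate number entered as a block, 2 of the genes were called higher and 3 lower, as without it. Among all genes the block gave 4589 higher and 4134 lower, against 4448 and 4049. The wider lists held 22 to 28 higher and 21 to 31 lower calls with 1 sample left out. With 2 samples per stage and unknown ChIP-seq depth, small differences could not be resolved.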
